A study of Mus musculus with 6 samples.

Results

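The 10 genes of cyclic nucleotide signalling described here were measured in inguinal white adipose tissue (iWAT), and are *Gnas*, *Adcy6*, *Adcy9*, *Prkaca*, *Prkar2b*, *Pde3b*, *Pde4d*, *Npr1*, *Npr3* and *Prkg1*. They were chosen by name as the steps that carry a signal inward from the lipolytic receptors of fat, and all 10 were among the 16069 genes that passed the filter on low counts, out of 36144 gene symbols in the deposited table. RNA-seq was done on whole iWAT of 10-week-old female mice on a C57BL6/J background that had free access to food. The 3 Cebpa_fl/fl mice carried floxed alleles of *Cebpa*, the gene of the adipogenic transcription factor C/EBPα, without Cre. The 3 Cebpa_ASKO mice carried the same floxed alleles with AdipoQ-Cre, which is expressed late in adipocyte differentiation, so cells of the depot that never express adiponectin keep the gene. Both inguinal depots of a mouse were pooled into 1 poly-A library after removal of the lymph nodes.

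In a fat cell, agonist-bound receptors activate the stimulatory G protein, and adenylyl cyclase then makes cyclic AMP (cAMP). cAMP releases the catalytic subunits of protein kinase A (PKA) from the regulatory subunits, and PKA phosphorylates perilipin and hormone-sensitive lipase to start lipolysis. Phosphodiesterases degrade cAMP, and insulin restrains lipolysis in large part through PDE3B. A parallel route begins with natriuretic peptides, whose receptor makes cyclic GMP for protein kinase G.

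The libraries held between 33141769 and 49477671 estimated counts, and those of Cebpa_ASKO were the 3 smallest. *Cebpa* itself was measured at 448, 465 and 498 CPM (the share of a library's counts, scaled with TMM factors) in Cebpa_fl/fl and at 37.7, 45.8 and 37.2 in Cebpa_ASKO, an 11.7-fold lower level (edgeR adjusted p = 0.000163). All 12 adipocyte markers had negative log2 fold changes, 6 of them called, with a median of -0.99. Their summed level ran from 35306 to 43565 CPM in Cebpa_fl/fl and from 11091 to 13611 in Cebpa_ASKO, and none was at 0. Of 16 skeletal muscle markers 12 were called higher, with a summed level of 713 to 983 CPM in Cebpa_fl/fl and 2287 to 6547 in Cebpa_ASKO. Mammary epithelium markers summed to 673 to 1386 CPM in Cebpa_fl/fl and 1793 to 1924 in Cebpa_ASKO, with 9 of 10 tested positive and 0 called by edgeR (7 at an unadjusted p below 0.05, 3 called higher by DESeq2, 0 by limma). Among the milk protein genes on that list, *Csn2* and *Wap* did not exceed 0.551 CPM. *Csn3* was at 68.8, 24.7 and 88.0 CPM in Cebpa_fl/fl and at 166, 153 and 91.0 in Cebpa_ASKO (log2 fold change 1.17, edgeR adjusted p = 0.224). Schwann cell and nerve markers summed to 128 to 190 and 240 to 343 CPM, with 1 of 6 called higher. That marker, *S100b*, had a mean of 9.94 CPM in Cebpa_fl/fl and 90.3 in Cebpa_ASKO. Without *S100b* the sums of the genotypes overlapped. Lymphocyte markers summed to 244 CPM in Cebpa_fl/fl 1 and to between 6.72 and 17.8 elsewhere. The part of these marker and depth differences in the gene levels was not tested.

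Of the 10 genes, *Prkar2b* and *Pde3b* were called lower in Cebpa_ASKO iWAT at an adjusted p below 0.05, and the other 8 did not pass the test. The background was 5.23% of all 16069 genes, with 3.84% lower and 1.39% higher. None of the 10 was called higher by edgeR, DESeq2 or limma, or reached an unadjusted p below 0.05 in that direction. The median log2 fold change of the 10 genes was -0.08, beside 0.02 for all genes tested. The CPM of the genotypes did not overlap for 3 of the 10 genes, which were *Prkar2b*, *Pde3b* and *Gnas*, beside 26.1% of all genes tested. The plot of CPM by library and the plot of fold changes show these genes together.

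**Figure D1:**
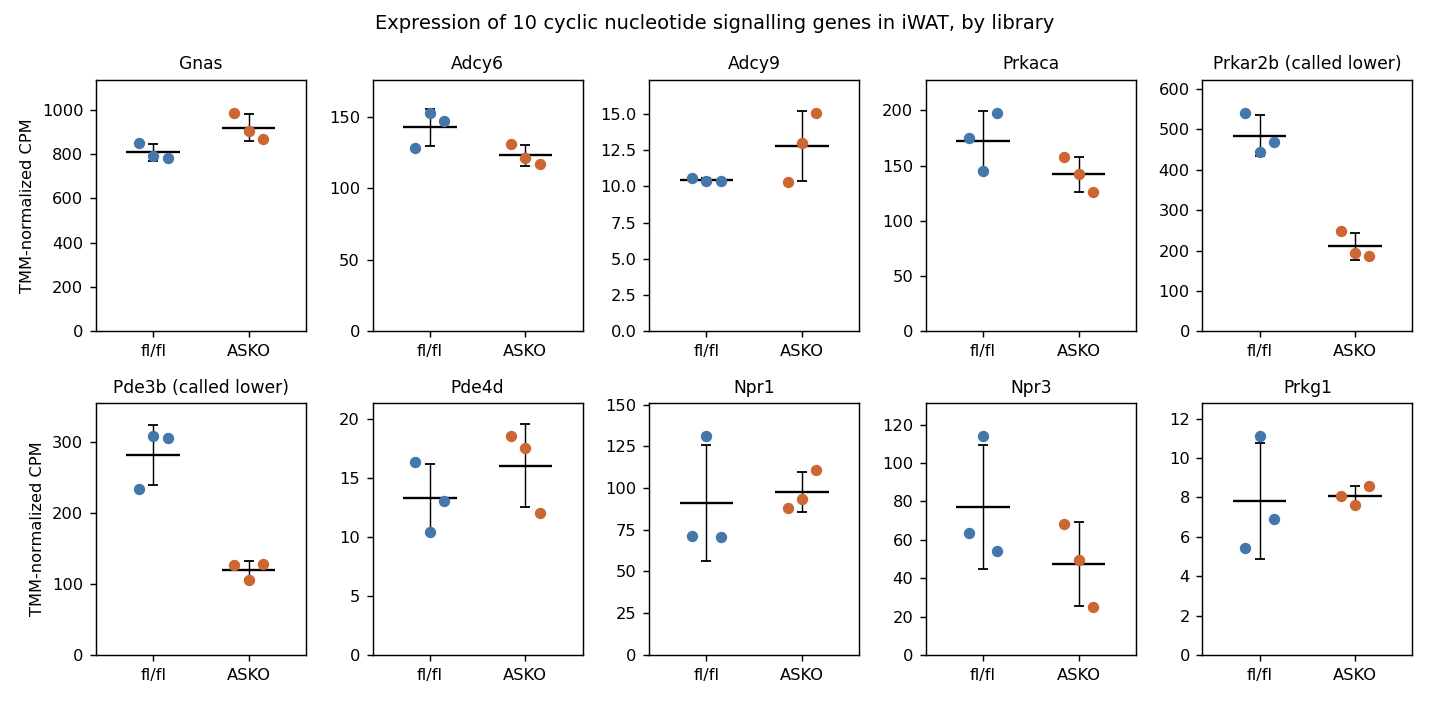
TMM-normalized CPM (vertical axes, each from 0) of the 10 genes in the 3 Cebpa_fl/fl (blue) and 3 Cebpa_ASKO (orange) libraries, with the mean as a line and the SD as a bar. The 3 Cebpa_ASKO libraries lie between 187 and 248 CPM for Prkar2b and between 105 and 128 for Pde3b, below all Cebpa_fl/fl libraries.

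**Figure D2:**
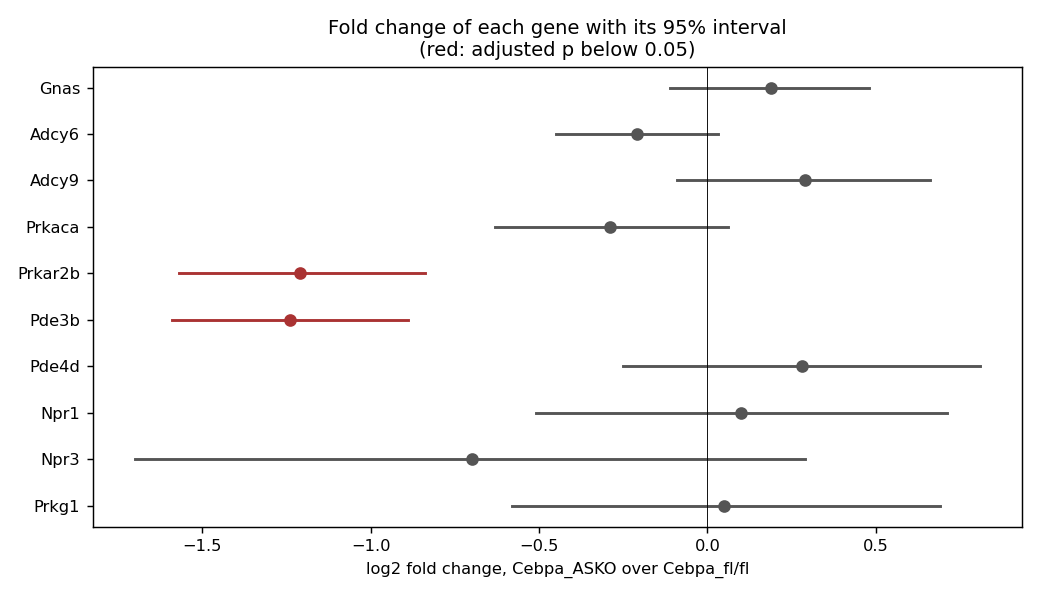
Log2 fold change of Cebpa_ASKO over Cebpa_fl/fl (horizontal axis) for the 10 genes, as a point with its 95% interval from edgeR. The intervals of Prkar2b and Pde3b (red) lie wholly below 0, and those of the other 8 genes include 0.

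On a scale that allows levels of different genes to be compared, TPM, which divides each count by transcript length, the 10 genes spanned a wide range. In Cebpa_fl/fl the order of mean TPM was *Gnas* (617), *Prkar2b* (185), *Prkaca* (97.4), *Pde3b* (54.7), *Adcy6* (37.7), *Npr1* (36.9), *Npr3* (17.4), *Pde4d* (5.34), *Adcy9* (2.79) and *Prkg1* (1.53). Within this order the ranges of *Pde3b* and *Adcy6* overlapped, as did those of *Adcy6* and *Npr1*. In Cebpa_ASKO the order was *Gnas* (734), *Prkaca* (83.2), *Prkar2b* (82.9), *Npr1* (44.6), *Adcy6* (38.7), *Pde3b* (23.7), *Npr3* (10.3), *Pde4d* (6.46), *Adcy9* (3.61) and *Prkg1* (1.62). There *Prkaca* and *Prkar2b* overlapped, and so did *Npr1* and *Adcy6*, and *Npr3* and *Pde4d*. *Prkar2b* thus stood above *Prkaca* in every Cebpa_fl/fl library, and in Cebpa_ASKO their ranges met.

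*Gnas* encodes the α subunit of the stimulatory G protein and had the highest level of the 10 genes in both genotypes. Its CPM was 850, 791 and 780 in Cebpa_fl/fl and 987, 903 and 866 in Cebpa_ASKO. All Cebpa_ASKO libraries were above all Cebpa_fl/fl libraries, but by a log2 fold change of only 0.19 ± 0.123 (SE), which did not pass the test (edgeR adjusted p = 0.476, 95% interval -0.11 to 0.48). The *Gnas* locus (GRCm38 chr2:174284320-174346744, plus strand) has several alternative starts. The 4 transcripts that begin in the region of the Gsα start held between 97.4% and 98.3% of *Gnas* TPM in each library, so the value is almost wholly that of the Gsα transcripts.

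The inhibitory counterpart differed. *Gnai1*, which encodes an inhibitory α subunit, measured 118, 183 and 132 CPM in Cebpa_fl/fl and 8.08, 6.64 and 10.9 in Cebpa_ASKO (log2 fold change -4.08 ± 0.257, edgeR adjusted p = 0.000742). Its paralogs *Gnai2* and *Gnai3* had log2 fold changes of -0.02 and 0.03 and were not called. *Gnai1* accounted for 18.0%, 24.1% and 22.2% of the TPM of these 3 genes in Cebpa_fl/fl and for 1.57%, 1.34% and 1.84% in Cebpa_ASKO. *Gnas* over summed *Gnai1*, *Gnai2* and *Gnai3* was 2.51, 1.99 and 2.51 in TPM in Cebpa_fl/fl and 3.66, 3.50 and 2.80 in Cebpa_ASKO, without overlap. Among 20 G protein subunit genes tested, 2 were called lower, *Gnai1* and *Gnb5*, whose product pairs with regulators of G protein signalling. *Gnb5* fell from 47.0 ± 4.57 (SD, n = 3) to 17.0 ± 0.322 CPM (SD, n = 3). None was called higher by edgeR. *Gnao1*, another α subunit of the inhibitory class, named after its values were seen, was at 13.6, 5.21 and 6.89 CPM in Cebpa_fl/fl and at 26.1, 25.8 and 17.3 in Cebpa_ASKO (log2 fold change 1.43, edgeR adjusted p = 0.0865), and was called higher in 5 of 16 alternative fits, DESeq2 and limma among them.

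*Adcy6* and *Adcy9* encode adenylyl cyclases, the enzymes that Gsα stimulates. *Adcy6* was measured at 128, 153 and 147 CPM in Cebpa_fl/fl and at 131, 121 and 117 in Cebpa_ASKO. The genotypes overlapped and the log2 fold change of -0.21 ± 0.102 was not called (edgeR adjusted p = 0.318). Its sign depended on the unit, since limma on log2(TPM + 1) gave 0.04. Here 1 short transcript weighed on the TPM: Adcy6-206, of 326 bases, held 22.0% of *Adcy6* TPM in Cebpa_ASKO 1, 3.31% in Cebpa_ASKO 2 and 0 elsewhere. *Adcy9* was measured at 10.6, 10.4 and 10.4 CPM in Cebpa_fl/fl and at 10.3, 13.0 and 15.1 in Cebpa_ASKO (log2 fold change 0.29 ± 0.156, edgeR adjusted p = 0.378). The controls lay within a narrow band and the Cebpa_ASKO libraries spread to both sides of it.

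Of 9 cyclase genes tested, *Adcy5* and *Adcy10* were called. *Adcy5* was at 142, 154 and 160 CPM in Cebpa_fl/fl and 35.1, 27.3 and 48.9 in Cebpa_ASKO (log2 fold change -2.03 ± 0.21, edgeR adjusted p = 0.00362). The summed TPM of the 10 membrane-bound and soluble cyclase genes was 90.1, 103 and 93.9 in Cebpa_fl/fl and 72.8, 69.8 and 74.6 in Cebpa_ASKO. Within that sum *Adcy5* went from 27.6% ± 2.06 to 9.26% ± 2.87 (SD, n = 3 each), and *Adcy6* from 39.3% ± 2.67 to 53.4% ± 6.53, again without overlap. Not all of the *Adcy6* TPM was of coding transcripts: Adcy6-202, annotated as retaining an intron, held between 40.4% and 49.6% of it in each library. The highest *Adcy6* share, 60.1%, was in Cebpa_ASKO 1, where the short Adcy6-206 held 22.0% of the gene's TPM. The larger share of *Adcy6* came with a smaller sum, and not with a called change of *Adcy6* itself. *Adcy10*, the bicarbonate-sensitive soluble cyclase, was called lower (log2 fold change -2.23, edgeR adjusted p = 0.0318), at no more than 4.11 CPM in any library and in 6 of the 14 other settings that tested it. In TPM its genotypes overlapped, with means of 0.874 and 0.555, and the log2 fold change was as small as -0.26 in an alternative fit.

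*Prkar2b* encodes RIIβ, the regulatory subunit of PKA that is characteristic of fat cells. It was measured at 542, 443 and 469 CPM in Cebpa_fl/fl and at 248, 195 and 187 in Cebpa_ASKO. The highest Cebpa_ASKO library was well below the lowest control, and the mean was 43.4% of that in Cebpa_fl/fl. The 2.31-fold lower level (log2 fold change -1.21 ± 0.151, 95% interval -1.57 to -0.84) had an edgeR adjusted p of 0.00728. It was called in all 16 alternative fits, and with any 1 library left out the log2 fold change lay between -1.34 and -1.12 with adjusted p between 0.00949 and 0.0467. In whole tissue, fewer cells of a type and less RNA per cell cannot be told apart, and the adipocyte markers moved in the same direction: *Plin1*, the lipid droplet protein that PKA phosphorylates, was at 45.9% of control CPM, *Lipe*, hormone-sensitive lipase, at 69.1%, and *Adipoq* at 13.2%. The part of adipocyte content in the fall of *Prkar2b* was not tested.

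*Prkaca*, the main catalytic subunit, was measured at 175, 145 and 198 CPM in Cebpa_fl/fl and at 158, 142 and 126 in Cebpa_ASKO. The genotypes overlapped in CPM, and the log2 fold change of -0.29 ± 0.144 was not called (edgeR adjusted p = 0.341, 95% interval -0.63 to 0.06). In TPM all Cebpa_ASKO libraries were below all Cebpa_fl/fl libraries, though narrowly, with 86.4 in Cebpa_ASKO 2 and 86.6 in Cebpa_fl/fl 2. It was not called there either (limma on log2(TPM + 1), adjusted p = 0.413). The other PKA subunits showed small differences only: *Prkar1a* was at 263 ± 8.04 and 260 ± 22.2 CPM (SD, n = 3 each), and *Prkacb* at 81.1 ± 7.02 and 81.1 ± 1.31. Of 9 genes for PKA subunits and inhibitors tested, *Prkar2b* was the only 1 called by edgeR. *Pkia*, which encodes an inhibitor of the catalytic subunit and is named after its values were seen, was at 13.0, 18.8 and 11.4 CPM in Cebpa_fl/fl and at 35.1, 39.0 and 17.6 in Cebpa_ASKO (log2 fold change 1.08, edgeR adjusted p = 0.129) and was called higher by DESeq2.

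The make-up of PKA transcripts differed accordingly. *Prkar2b* held 63.9%, 60.4% and 60.9% of regulatory subunit TPM in Cebpa_fl/fl and 45.3%, 41.4% and 37.0% in Cebpa_ASKO, while the share of *Prkar1a* was 33.9% ± 1.39 and 52.2% ± 3.60 (SD, n = 3 each) without a called change of its own. *Prkar2b* over *Prkar1a* was 1.98, 1.75 and 1.75 in Cebpa_fl/fl and 0.922, 0.807 and 0.658 in Cebpa_ASKO, so the more abundant regulatory transcript was a different gene in each genotype. Regulatory over catalytic TPM was 2.67, 2.60 and 2.20 in Cebpa_fl/fl and 1.85, 1.74 and 2.04 in Cebpa_ASKO. These shares and ratios follow from the levels already given and were not tested separately. The plot of family make-up shows them by library.

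**Figure D3:**
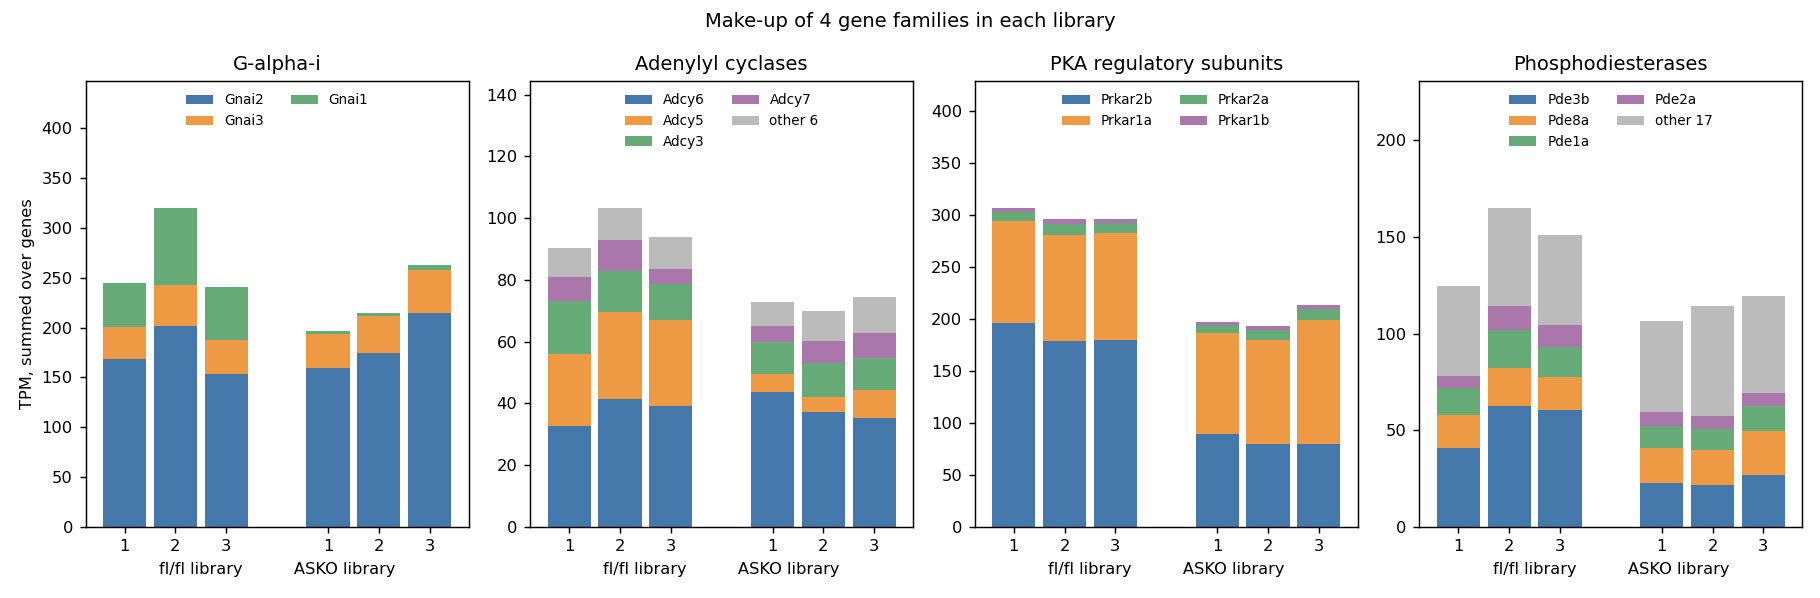
TPM summed over the genes of 4 families (vertical axes, from 0) in each of the 6 libraries, with the most abundant genes in color and the remaining ones in grey. The Gnai1, Adcy5, Prkar2b and Pde3b segments are smaller in the 3 Cebpa_ASKO libraries, with Prkar2b at 45.3%, 41.4% and 37.0% of its family there against 60.4% to 63.9% in Cebpa_fl/fl.

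The 250 bases before the annotated RefSeq start (GRCm38.p6) were read for the genes with an entry, *Gnas*, *Adcy9*, *Prkaca*, *Prkar2b*, *Pde4d*, *Npr1*, *Npr3* and *Prkg1*, with 14 windows in all. The upstream windows of both PKA genes are shown because the regulatory subunit was called lower and its catalytic partner was not. Capitals mark CCAAT (the CCAAT box) and TGACG (the core of the cAMP response element), on either strand, and no overlapping matches occurred.
Prkar2b, chr12:32061278-32061527, minus strand: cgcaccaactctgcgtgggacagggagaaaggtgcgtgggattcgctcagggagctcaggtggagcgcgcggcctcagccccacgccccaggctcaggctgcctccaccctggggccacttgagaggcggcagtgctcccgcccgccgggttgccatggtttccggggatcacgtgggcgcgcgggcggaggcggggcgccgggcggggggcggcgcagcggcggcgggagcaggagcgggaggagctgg
Prkaca, chr8:83972728-83972977, plus strand: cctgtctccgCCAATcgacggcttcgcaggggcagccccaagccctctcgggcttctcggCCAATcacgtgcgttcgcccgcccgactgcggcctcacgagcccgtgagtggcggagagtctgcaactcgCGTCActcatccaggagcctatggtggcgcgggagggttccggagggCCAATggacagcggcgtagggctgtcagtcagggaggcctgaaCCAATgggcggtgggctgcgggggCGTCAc
This *Prkar2b* window had 75.6% GC with 28 CpG and neither motif. This *Prkaca* window had 68.8% GC with 25 CpG, 4 CCAAT matches and 2 TGACG matches. A second annotated start of *Prkaca* (chr8:83976633-83976882) had 50.8% GC with 2 CpG, and the second of *Prkar2b* (chr12:32060590-32060839) 69.6% with 26 CpG, and neither window held either motif. Over all 32851 windows of this length the median GC was 52.4% with 6 CpG, 33.8% held CCAAT and 17.8% held TGACG. The C/EBP motif TTGCNNAA, on either strand, was in 0 of the 14 windows and in 9.56% of all windows, and the full element TGACGTCA in 0 of 14 and in 1.55%. Matches and their absence describe only the letters of these windows.

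*Pde3b* encodes the phosphodiesterase through which insulin lowers cAMP in fat cells. It was measured at 233, 308 and 305 CPM in Cebpa_fl/fl and at 126, 105 and 128 in Cebpa_ASKO. The groups were far apart, with a mean in Cebpa_ASKO of 42.4% of control. The level was 2.36-fold lower (log2 fold change -1.24 ± 0.147, 95% interval -1.59 to -0.89, edgeR adjusted p = 0.00571). It was called in 15 of 16 alternative fits and in each fit with 1 library left out (log2 fold change -1.36 to -1.17), and missed the threshold in limma without a filter (adjusted p = 0.0525). Transcript Pde3b-201 held at least 93.0% of the gene's TPM in every library. As for *Prkar2b*, the fall stood beside the lower adipocyte markers and the part of adipocyte content was not tested.

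*Pde3a*, the paralog, was not called (19.5 ± 5.07 and 20.6 ± 1.26 CPM, SD, n = 3 each; log2 fold change 0.08), and *Pde3b* over *Pde3a* went from 24.9, 23.8 and 39.5 in TPM to 11.6, 10.7 and 11.5. *Pde3b* held 32.9%, 38.0% and 40.1% of the TPM of 21 phosphodiesterase genes in Cebpa_fl/fl and 21.1%, 19.0% and 22.6% in Cebpa_ASKO. It remained the phosphodiesterase with the highest mean TPM in both genotypes, with *Pde8a* next at 17.7 and 19.6 TPM. Of 19 phosphodiesterase genes tested only *Pde3b* was called by edgeR, and DESeq2 called 2 lower.

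*Pde4d* encodes a cAMP-specific phosphodiesterase with many isoforms. It was measured at 16.3, 10.4 and 13.0 CPM in Cebpa_fl/fl and at 18.5, 17.5 and 12.0 in Cebpa_ASKO (log2 fold change 0.28 ± 0.223, edgeR adjusted p = 0.574). The genotypes overlapped. *Pde4d* held 32.2% ± 1.69 of the summed TPM of *Pde4a* to *Pde4d* in Cebpa_fl/fl and 32.6% ± 2.94 in Cebpa_ASKO (SD, n = 3 each). Pde4d-207 was its leading transcript in every library, between 49.2% and 56.6%, while the second, Pde4d-213, ranged from 2.48% to 37.6% among controls alone.

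*Npr1* encodes the guanylyl cyclase receptor of atrial natriuretic peptide, and *Npr3* the clearance receptor, which removes the peptides. *Npr1* was measured at 71.4, 131 and 70.4 CPM in Cebpa_fl/fl and at 87.8, 93.5 and 111 in Cebpa_ASKO (log2 fold change 0.10 ± 0.256, edgeR adjusted p = 0.888). Cebpa_fl/fl 2 was the highest of the 6 libraries and the other controls were the lowest, so the Cebpa_ASKO libraries lay between them. Without Cebpa_fl/fl 2 the log2 fold change of *Npr1* was 0.45 (adjusted p = 0.102), and without either other control it was -0.05.

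*Npr3* was measured at 63.3, 114 and 54.0 CPM in Cebpa_fl/fl and at 68.1, 49.4 and 24.8 in Cebpa_ASKO (log2 fold change -0.70 ± 0.418, 95% interval -1.70 to 0.29, edgeR adjusted p = 0.424). Its controls again peaked in Cebpa_fl/fl 2 and the groups overlapped. With 1 library left out the log2 fold change ran from -1.06 to -0.32. The ratio of *Npr1* to *Npr3* within a library varied less among controls, at 1.99, 2.12 and 2.25 in TPM, and was 3.08, 3.75 and 8.10 in Cebpa_ASKO, without overlap in TPM. In CPM the ratio overlapped between the genotypes, with Cebpa_ASKO 1 slightly below Cebpa_fl/fl 3. *Npr3* held 22.0% ± 3.03 of the TPM of the 3 receptor genes in Cebpa_fl/fl and 13.4% ± 5.08 in Cebpa_ASKO (SD, n = 3 each). These ratios were computed after the levels were known and were not tested.

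*Prkg1* encodes protein kinase G type I, the cGMP-dependent kinase downstream of *Npr1*. It was measured at 5.41, 11.1 and 6.89 CPM in Cebpa_fl/fl and at 8.08, 7.61 and 8.57 in Cebpa_ASKO (log2 fold change 0.05 ± 0.266, edgeR adjusted p = 0.946). Controls spanned the whole range and the Cebpa_ASKO libraries fell inside it. *Npr1*, *Npr3* and *Prkg1* were all highest in Cebpa_fl/fl 2, at 1.39, 1.83 and 1.39 times their mean over the 6 libraries. The summed macrophage markers stood at 1.52 times and the summed progenitor and fibroblast markers at 1.32 times their means in that library. The summed adipocyte markers were also highest there, at 1.69 times. The endothelial, smooth muscle and pericyte, and skeletal muscle sums were not, at 1.12, 1.05 and 0.398 times. *Adcy6* and *Pde3b* were likewise highest in Cebpa_fl/fl 2. No macrophage, progenitor or fibroblast marker was at 0 in any library, and the part of the markers in these values was not tested. The plot of receptors and stromal markers shows all 6 libraries.

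**Figure D4:**
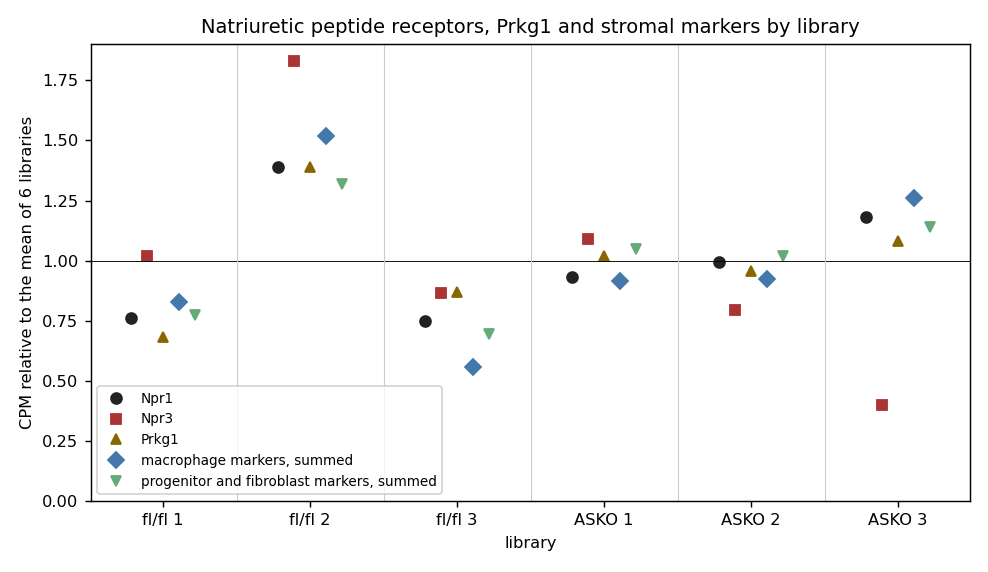
CPM of Npr1, Npr3 and Prkg1, and summed CPM of 10 macrophage and 12 progenitor and fibroblast markers, each divided by its mean over the 6 libraries (vertical axis, from 0, with a line at 1) for each library (horizontal axis). All 5 series are highest in Cebpa_fl/fl 2, as are the summed adipocyte markers, which are not drawn. Npr3 is lowest in Cebpa_ASKO 3 at 0.399.

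For the transcript that leads in each of the 10 genes, the share of the gene's TPM did not overlap between genotypes for 1 gene, beside 12.0% of all genes with several transcripts. That gene was *Npr1*, where Npr1-201 held 71.4%, 70.6% and 72.5% in Cebpa_fl/fl and 53.8%, 68.7% and 69.2% in Cebpa_ASKO (exact two-sided permutation p = 0.1, the smallest that 3 against 3 libraries can give). Cebpa_ASKO 1 stood apart and the other Cebpa_ASKO libraries were close to the controls. With shares of estimated counts in place of TPM, 0 of the 10 did not overlap. Prkaca-201 held at least 99.9% of its gene and Prkar2b-202 between 85.8% and 90.8% in every library. For *Adcy9*, the division between Adcy9-201 and Adcy9-202 varied widely within each genotype, with Adcy9-201 at 67.8%, 61.2% and 12.2% in Cebpa_fl/fl and at 45.9%, 64.3% and 3.29% in Cebpa_ASKO.

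Around these genes, 141 further genes of the pathway were listed, of which 126 were tested. Of them 17 were called lower (13.5%) and 2 higher (1.59%), beside 3.84% and 1.39% of all genes tested, and their median log2 fold change was -0.04. Without Cebpa_ASKO 1 the calls were 9 lower and 0 higher, and without Cebpa_ASKO 2 they were 10 and 0. The 2 higher calls, *Akap1* and *Mrvi1*, were both lost with any 1 library left out (adjusted p from 0.0502 to 0.163 for *Akap1* and from 0.0637 to 0.137 for *Mrvi1*). The receptor list made up much of the lower calls, with 7 of 15 tested: *Tshr*, *Adrb3*, *Mc2r*, its accessory gene *Mrap*, *Ptger3*, *Hcar2* and *Hcar1*, at log2 fold changes from -7.35 to -1.07. *Tshr*, *Adrb3* and *Mc2r* were called in every alternative fit that tested them. *Mrap*, *Hcar1*, *Hcar2* and *Ptger3* were called in 9, 11, 11 and 13 of 16. Their edgeR adjusted p reached 0.111, 0.113, 0.138 and 0.075 with 1 library left out. The plot of the pathway lists shows each tested gene.

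**Figure D5:**
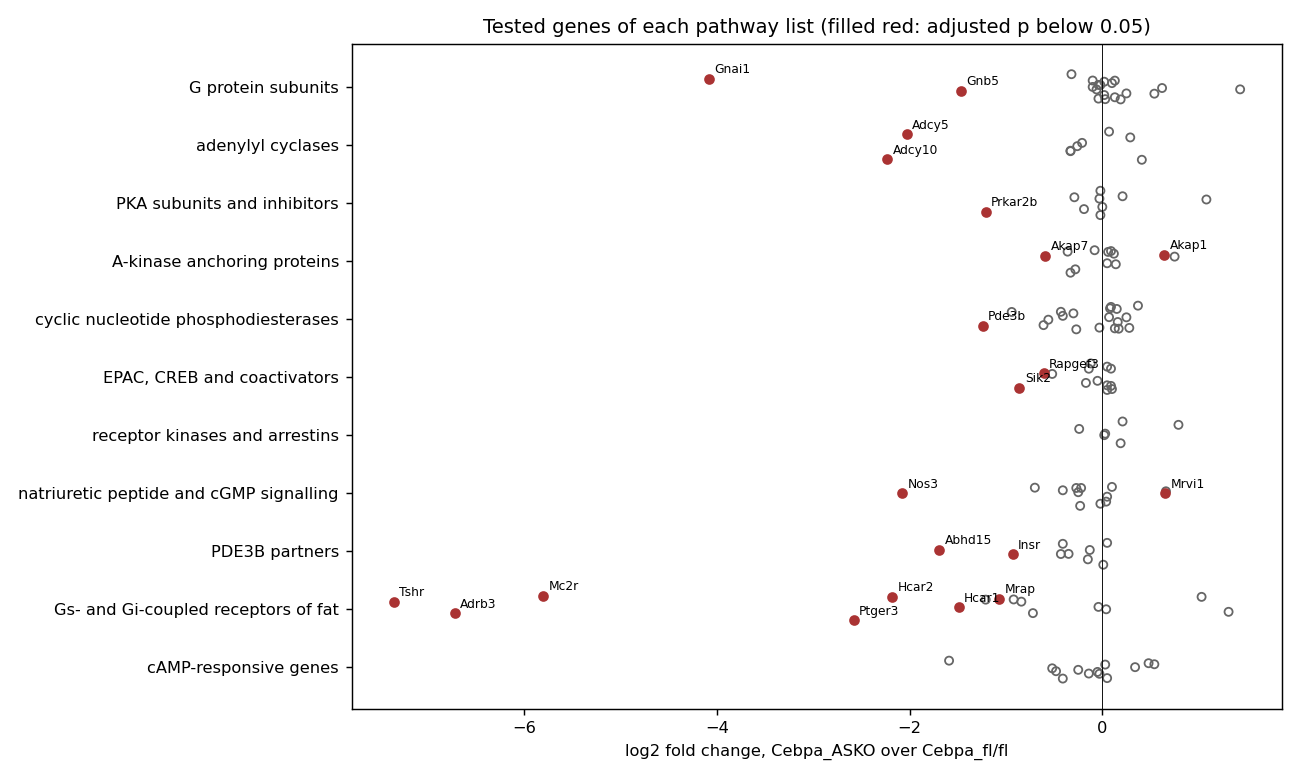
Log2 fold change of Cebpa_ASKO over Cebpa_fl/fl (horizontal axis) for each tested gene of 11 pathway lists (rows), the 10 genes followed here included, with genes at an edgeR adjusted p below 0.05 filled and named and vertical scatter within a row added for legibility only. Called genes lie mostly left of 0, from Tshr at -7.35 to Akap7 at -0.59, with Akap1 and Mrvi1 on the right.

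Among partners of PDE3B and insulin signalling, 2 of 9 genes were called lower by edgeR and 4 had an unadjusted p below 0.05. *Abhd15*, whose product binds and stabilizes PDE3B, was measured at 18.8, 23.9 and 26.0 CPM in Cebpa_fl/fl and at 8.05, 7.00 and 6.31 in Cebpa_ASKO (log2 fold change -1.69, edgeR adjusted p = 0.00267). *Insr*, the insulin receptor, went from 107, 110 and 132 to 58.3, 59.8 and 64.7 CPM (log2 fold change -0.93, edgeR adjusted p = 0.00516). Neither gene's groups overlapped, so *Pde3b*, *Abhd15* and *Insr* were lower side by side.

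Downstream of cAMP, *Sik2*, a kinase of fat cells that PKA phosphorylates, fell from 226 ± 36.6 to 124 ± 9.80 CPM (SD, n = 3 each; edgeR adjusted p = 0.0189). *Sik2* was called in 13 of 16 alternative fits, and its edgeR adjusted p reached 0.101 with 1 library left out. The other called member of the 13 genes for EPAC, CREB and coactivators was *Rapgef3*, the exchange factor EPAC1 (log2 fold change -0.61, edgeR adjusted p = 0.03). Of 12 anchoring proteins tested, which tether PKA at sites in the cell, *Akap7* was called lower (-0.59, edgeR adjusted p = 0.0173) and *Akap1*, a mitochondrial anchor, higher (0.64, edgeR adjusted p = 0.0425). Among 13 genes of natriuretic peptide and cGMP signalling, *Nos3*, the endothelial nitric oxide synthase, fell from 47.8 ± 12.0 to 11.3 ± 3.09 CPM (SD, n = 3 each; edgeR adjusted p = 0.0061). In the same libraries the 11 endothelial markers had a median log2 fold change of -0.37 with 2 called lower, and their part in the value of *Nos3* was not tested. *Mrvi1*, a substrate of protein kinase G, was called higher at 7.90 ± 0.423 and 12.4 ± 0.991 CPM (log2 fold change 0.65, edgeR adjusted p = 0.0317). *Akap7* and *Rapgef3* were called in 7 and 6 of 16 alternative fits, with adjusted p of up to 0.0913 and 0.136 with 1 library left out, and *Akap1* and *Mrvi1* in 9 and 6. All 4 are named although their changes were smaller than those of the genes chosen by rule. None of the 6 receptor kinase and arrestin genes was called by edgeR, DESeq2 or limma, and 1 had an unadjusted edgeR p below 0.05.

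The genes whose pattern over the 6 libraries was closest to that of each called gene were sought among 12610 genes, by the root mean square difference of log2 CPM centered on each gene's mean. For *Pde3b* they were *Abhd5* (0.0776), the coactivator of adipose triglyceride lipase, *Psat1* (0.0938), of serine synthesis, and *Slc1a5* (0.10), a glutamine transporter. For *Prkar2b* they included *Isoc2a* (0.116) and *Slc16a12* (0.131). *Abhd5* was at 109, 125 and 126 CPM in Cebpa_fl/fl and at 54.8, 48.7 and 58.1 in Cebpa_ASKO, parallel to *Pde3b* in each library. These 5 genes had log2 fold changes between -1.40 and -1.15. The search ran over both genotypes, so a fold change near that of the called gene was built into the choice.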

How the data were processed

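For each of 6 libraries the authors deposited estimated counts per transcript from kallisto, 0.44.0 in the submitters' processing notes, which list GRCm38.p6, and TPM per transcript and per gene symbol. The transcript annotation used is not given in the sources used here. Here 116816 of 118489 transcripts were matched to GENCODE M21, and their estimated counts were summed per symbol and rounded. Genotypes were compared in R 4.3.3 with edgeR 4.0.16 (quasi-likelihood test, TMM, default filter on low counts, Benjamini-Hochberg adjustment over 16069 genes, called at an adjusted p below 0.05). CPM are TMM-scaled. Alternatives used DESeq2 1.42.0, limma 3.58.1 on log2(TPM + 1), which understates changes of low genes, other scalings and filters, a replicate block, and each library left out. The procedure was tested on simulated counts. Replicates differed by more than sampling noise (chi-square over its degrees of freedom 27.6 to 239). kallisto divides reads among similar transcripts, so shares of transcripts are less certain than gene totals. The libraries share 1 batch label. The genes, lists and tests were chosen with earlier results of these data known. Besides the 10 genes, the text names *Cebpa*, close paralogs, the 15 called pathway genes with the largest fold change, and the 3 genes nearest in pattern to each called gene, of which 1 is not reported here. Promoter windows came from RefSeq.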

Additional observations from a re-analysis of the deposited data

How the results depend on the processing

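Over the 16 alternative fits, 150 of 160 log2 fold changes of the 10 genes kept their direction and their side of the threshold. *Prkar2b* was called in all of them. *Pde3b* was not called in limma on log2(TPM + 1) without a filter (-1.15, adjusted p = 0.0525), which left 1 of the 10 genes called lower. The sign of *Adcy6* reversed to 0.04 in the 3 limma fits. The signs of *Npr1* and *Prkg1* reversed without Cebpa_fl/fl 1 (-0.05 and -0.15), without Cebpa_fl/fl 3 (-0.05 and -0.03) and without Cebpa_ASKO 3 (-0.02 and -0.01), against 0.45 and 0.38 without Cebpa_fl/fl 2. The cause was not tested.

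Over all genes 840 were called. DESeq2 called 1813, limma without a filter 359, and adding a minimum log2 fold change of 1 in size left 495. Leaving out 1 library gave between 311 and 922. Higher calls were 26.5% of all calls, but 37.3% with DESeq2. For the other pathway genes, limma without a filter called 9 lower and 1 higher, DESeq2 called 6 higher, and the fold threshold left 0 higher. Leaving out 1 library gave 9 to 16 lower and 0 to 2 higher. The higher calls in those fits were of genes other than *Akap1* and *Mrvi1*, which were lost in each of them. Lead transcript shares did not overlap for 1 gene, for 0 with count shares, and for 1 to 3 with a library left out.

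The deviations of same-numbered libraries from their genotype means correlated at 0.0662, 0.0278 and -0.201, so the replicate numbers were not taken as pairs. No library correlated best with its own number. A replicate block reduced the calls to 370, with 10 pathway genes lower and 0 higher, and changed no call among the 10 genes. With 3 mice per genotype the 95% intervals of the uncalled genes still include log2 fold changes from -1.70 (*Npr3*) to 0.81 (*Pde4d*).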

Other observations

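Of 13 genes that cAMP is known to induce, none was called by edgeR, DESeq2 or limma, and 1, *Dusp1*, a phosphatase of MAP kinases, had an unadjusted edgeR p below 0.05 (log2 fold change -0.52). Their summed level was 1078, 211 and 376 CPM in Cebpa_fl/fl and 512, 469 and 475 CPM in Cebpa_ASKO. Most of that spread was *Ucp1*, the uncoupling protein of thermogenic fat, at 733, 19.4 and 112 CPM in Cebpa_fl/fl and at 248, 224 and 181 CPM in Cebpa_ASKO. *Dio2*, which activates thyroid hormone in thermogenic fat, was likewise highest in Cebpa_fl/fl 1, at 35.4 CPM, and between 2.94 and 7.77 CPM in the other libraries. *Nr4a1*, an orphan nuclear receptor, had 48.9 CPM there and between 9.20 and 31.0 CPM elsewhere. These 3 genes were named after their values were seen. The controls lay on both sides of Cebpa_ASKO for *Ucp1* and *Nr4a1*, and Cebpa_fl/fl 1 also had the highest summed lymphocyte markers.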
